A study of Mus musculus with 6 samples.

Results

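Mitochondrial ribosomal proteins are the protein parts of the mitoribosome, the ribosome inside mitochondria. Here they are the 77 genes, of 43432 in the deposited expression table, whose names consist of Mrpl or Mrps, a number and at most 1 further letter, read without regard to case. All 77 are nuclear protein-coding genes, spread over 17 chromosomes. They were measured by RNA sequencing of right and left atria from 3 obese mice, fed a high-fat diet (HFD), and 3 lean mice, fed control chow. All 6 mice were wild type, labelled C57/Bl6J, and feeding began at an age of 6 weeks and lasted 10 weeks. The labels are contradictory: under treatment, each of the 6 samples carries the diet that its title, and its column name in the table, assign to the other group. Groups were taken from the titles, and every direction below rests on that choice.

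The mitoribosome translates the few messenger RNAs that mitochondrial DNA encodes, all of them for subunits of the respiratory chain and ATP synthase. Its small subunit holds the mRNA and reads the code, and its large subunit joins the amino acids and threads the new chain into the inner membrane. The 2 ribosomal RNAs come from mitochondrial DNA, whereas all of the proteins are encoded in the nucleus, made in the cytosol and imported. Many of the proteins descend from bacterial ribosomal proteins, and the others were added during the evolution of mitochondria. The heart, which lives on oxidative phosphorylation, is rich in mitochondria.

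By structure, 50 of the 77 genes encode proteins of the large subunit and 26 encode proteins of the small subunit. Names and positions do not always match, since Mrps30 and Mrps18a code for large subunit proteins. Mrps36, in spite of its name, is now known as a component of the α-ketoglutarate dehydrogenase complex and was kept only because the name rule takes it in. Of the proteins, 46 are classed here as counterparts of bacterial proteins and 30 as specific to mitochondria. The 30 include Mrps18a and Mrps18b, which are related to bacterial S18 but occupy other places.

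The start regions of 4 genes are shown because these genes had the smallest p-values in each direction of the diet comparison, Mrpl49 and Mrps27 among the genes lower in obese atria and Mrps25 and Mrps18a among those higher. Each stretch runs from 120 bases before to 30 bases after the RefSeq start site (GRCm38.p6), 5′ to 3′ on the strand of the gene. Capitals mark matches, on either strand, to the letters that the factors YY1 (AAGATGGC), ETS proteins such as GABPA (CCGGAAG) and NRF1 (GCGC, any base, TGCGC) are known to bind. Mrpl49 lies at chr19:6057726-6057875 on the minus strand, Mrps27 at chr13:99344666-99344815 on the plus strand, Mrps25 at chr6:92183994-92184143 on the minus strand and Mrps18a at chr17:46110884-46111033 on the plus strand.
Mrpl49: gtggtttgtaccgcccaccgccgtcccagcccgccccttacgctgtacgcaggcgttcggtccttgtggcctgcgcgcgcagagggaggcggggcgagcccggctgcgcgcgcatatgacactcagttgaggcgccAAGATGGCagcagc
Mrps27: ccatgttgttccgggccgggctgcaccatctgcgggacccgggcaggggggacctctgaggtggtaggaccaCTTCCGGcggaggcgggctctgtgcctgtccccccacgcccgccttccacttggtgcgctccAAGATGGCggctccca
Mrps25: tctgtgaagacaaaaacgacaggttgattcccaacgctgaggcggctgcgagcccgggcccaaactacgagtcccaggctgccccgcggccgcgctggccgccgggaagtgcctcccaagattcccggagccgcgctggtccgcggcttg
Mrps18a: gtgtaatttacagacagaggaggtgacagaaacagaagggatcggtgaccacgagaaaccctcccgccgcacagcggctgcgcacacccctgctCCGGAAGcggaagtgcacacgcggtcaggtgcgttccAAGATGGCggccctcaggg

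In Mrpl49, Mrps27 and Mrps18a the YY1 letters stood just downstream of the start site, their first base at position 17, 15 and 12 after it. Mrps27 and Mrps18a also carried the ETS letters upstream of the start, in Mrps27 on the opposite strand. No match to any of the 3 motifs lay in the stretch of Mrps25. Of the 77 genes, 68 had a RefSeq window from 250 bases before to 50 bases after the start, and 41 of these (60.3%) held at least 1 of the motifs, against 20.3% of 16492 protein-coding genes and 28.6% of the 10540 protein-coding genes that were expressed well enough to be tested. The YY1 letters occurred in 12 windows (17.6%, against 3.28% of all protein-coding genes and 4.49% of those tested), the ETS letters in 24 (35.3%, against 12.4% and 17.5%) and the NRF1 letters in 13 (19.1%, against 6.94% and 10.1%). The TATA box letters TATAAA occurred in 4 windows (5.88%, against 12.7% of all and 7.23% of those tested). In 8 of the 12 genes with the YY1 letters, among them Mrps7, Mrps24, Mrpl35, Mrpl37 and Mrpl42, the match read in the direction of transcription and began after the start site, between positions 12 and 37. The NRF1 letters lay within 100 bases upstream of the start in 11 of 13 genes. The motifs can overlap and a match of letters is not a bound site.

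A second feature of these loci was a neighbour that starts close by on the opposite strand. Divergent starts, no more than 1000 bases upstream or overlapping by no more than 200, were taken from gene positions in the deposited table (GRCm38). They were present for 22 of the 77 genes (28.6%), against 8.01% of 22096 protein-coding genes of the table and 11.3% of the 13566 tested. The median offset between the starts, with overlapping starts counted as negative, was 91.5 bases. Some neighbours also serve translation or mitochondrial DNA. Mrpl49 started 137 bases from Fau, which encodes a cytosolic ribosomal protein fused to a ubiquitin-like domain, Mrps12 started 148 bases from Sars2, the mitochondrial seryl-tRNA synthetase, and Mrpl43 started 116 bases from Twnk, the helicase of mitochondrial DNA. Mrpl46 and Mrps11 overlapped head to head, sharing 173 exonic bases on opposite strands.

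**Figure D1:**
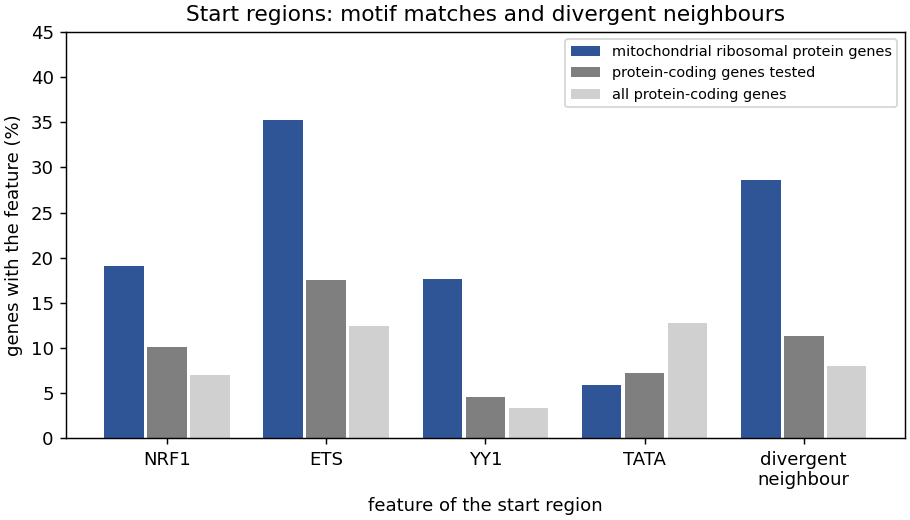
Percentage of genes (y axis) whose start region held each motif, or that had a divergent neighbour (x axis), for mitochondrial ribosomal protein genes (blue), protein-coding genes tested (dark grey) and all protein-coding genes (light grey). Motif shares are over 68, 10540 and 16492 genes with a RefSeq window, and divergent neighbours over 77, 13566 and 22096 genes; the blue bars are the highest except for TATA, at 5.88% against 7.23% and 12.7%.

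Expression is given in normalized counts, which are reads divided by 1 size factor per mouse. Reads on genes ranged from 15874251 to 28971508 per mouse, and the 77 genes together took between 0.242% and 0.290% of them. None of the 77 was without reads in any mouse, the lowest being 7 reads for Mrpl23, and 70 of them had at least 200 normalized counts in every mouse. Atrial tissue was clear from Myl7, the atrial myosin light chain, at 27168 to 60190 normalized counts, and from Nppa, the atrial natriuretic peptide, at 171702 to 333975. Lean mouse 2 stood apart from the other mice. It was the most deeply sequenced, it had 30.7% of its reads on mitochondrial genes against 19.5% to 24.4% elsewhere, and its summed ventricular markers (5 genes, Myl2 and Myl3 foremost) reached 17448 normalized counts against 6921 to 9918.

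Divided by the length of the principal transcript (the longest where several ranked equal), to make genes comparable, the levels of the family spread widely. The median was 368 normalized counts per kilobase, with quartiles of 192 and 593, over the 76 genes with a length. Mrpl42, a large subunit protein specific to mitochondria, was the highest at 4219 per kilobase. It was followed by Mrps21, the counterpart of bacterial S21, at 1870, and by Mrps6, the counterpart of bacterial S6, at 1781. Processed pseudogenes resemble Mrpl42 (Gm6419, 96.3% identity over 64.4% of the transcript) and Mrps21 (Gm6181, 97.3% over 54.1%). Mrps6 shares 159 exonic bases with Slc5a3 and 305 with Gm49711 on the same strand. The order of Mrps21 and Mrps6 was not stable between mice, since Mrps21 ran from 1586 to 2102 per kilobase and Mrps6 from 1389 to 2139, whereas Mrpl42 stayed between 3807 and 4605 and above both in every mouse. At the low end stood Mrpl17 at 73.5, Mrpl19 at 70.2 and Mrpl23 at 18.8. Mrpl19 had 254 to 463 normalized counts and was divided by a length of 5000 bases, so its place depends on that length. Of its exonic bases, 1962 overlap Gcfc2 on the opposite strand. Mrpl17 (66.8 to 82.4) and Mrpl19 (50.8 to 92.7) overlapped.

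Mrpl23 encodes the counterpart of the bacterial exit tunnel protein L23. It had 17.1, 7.14 and 7.95 normalized counts in obese mice 1, 2 and 3 and 11.2, 11.6 and 23.0 in lean mice 1, 2 and 3. A processed pseudogene on chromosome 2, Mrpl23-ps1, is 100% identical to 78.0% of its transcript and was assigned 514 ± 80.2 normalized counts in obese and 566 ± 71.2 in lean mice (SD, n = 3). The authors kept uniquely mapped reads, and the split of reads between the 2 copies is uncertain. Copies of at least 95% identity over at least 30% of the transcript, not overlapping the gene itself, were found for 11 of the 77 genes (14 copies), Mrps36 having 4 of them. Exons of 27 genes overlapped a gene on the opposite strand and those of 7 a gene on the same strand. Whether reads were assigned by strand is not given in the sources used here, so the values of these genes are less certain.

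The comparison of obese with lean atria asked which transcripts differ with diet-induced obesity. Most of the family was fitted slightly lower in obese atria, and no gene of it passed the test. The log2 fold change, obese against lean, was below 0 for 63 of 77 genes (81.8%) and above 0 for 14, where 49.2% of all 15275 genes tested were below 0. The median was −0.10, against 0.0049 for all genes tested, and the values ran from −0.50 for Mrpl23 to 0.16 for Mrps25. In limma's test on log2(normalized count + 1), 0 of 77 genes had a Benjamini-Hochberg adjusted p under 0.05 in either direction, where 0.484% of all genes tested were called higher and 0.262% lower. At an unadjusted p under 0.05, 4 genes were lower (5.19%, against 5.55% of all genes) and 0 were higher (against 6.66%). edgeR's quasi-likelihood test and DESeq2 on the recovered reads also called 0 after adjustment, with 4 and 2 genes lower and 0 higher at an unadjusted p under 0.05. The shares of all genes called by edgeR and DESeq2 were not set beside these counts. Genes of a family share mice and are not independent replicates, so no test of the family was made. Each sample is taken here as 1 mouse, which the labels do not state, and p-values then measure only the spread between these samples, which may be technical.

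**Figure D2:**
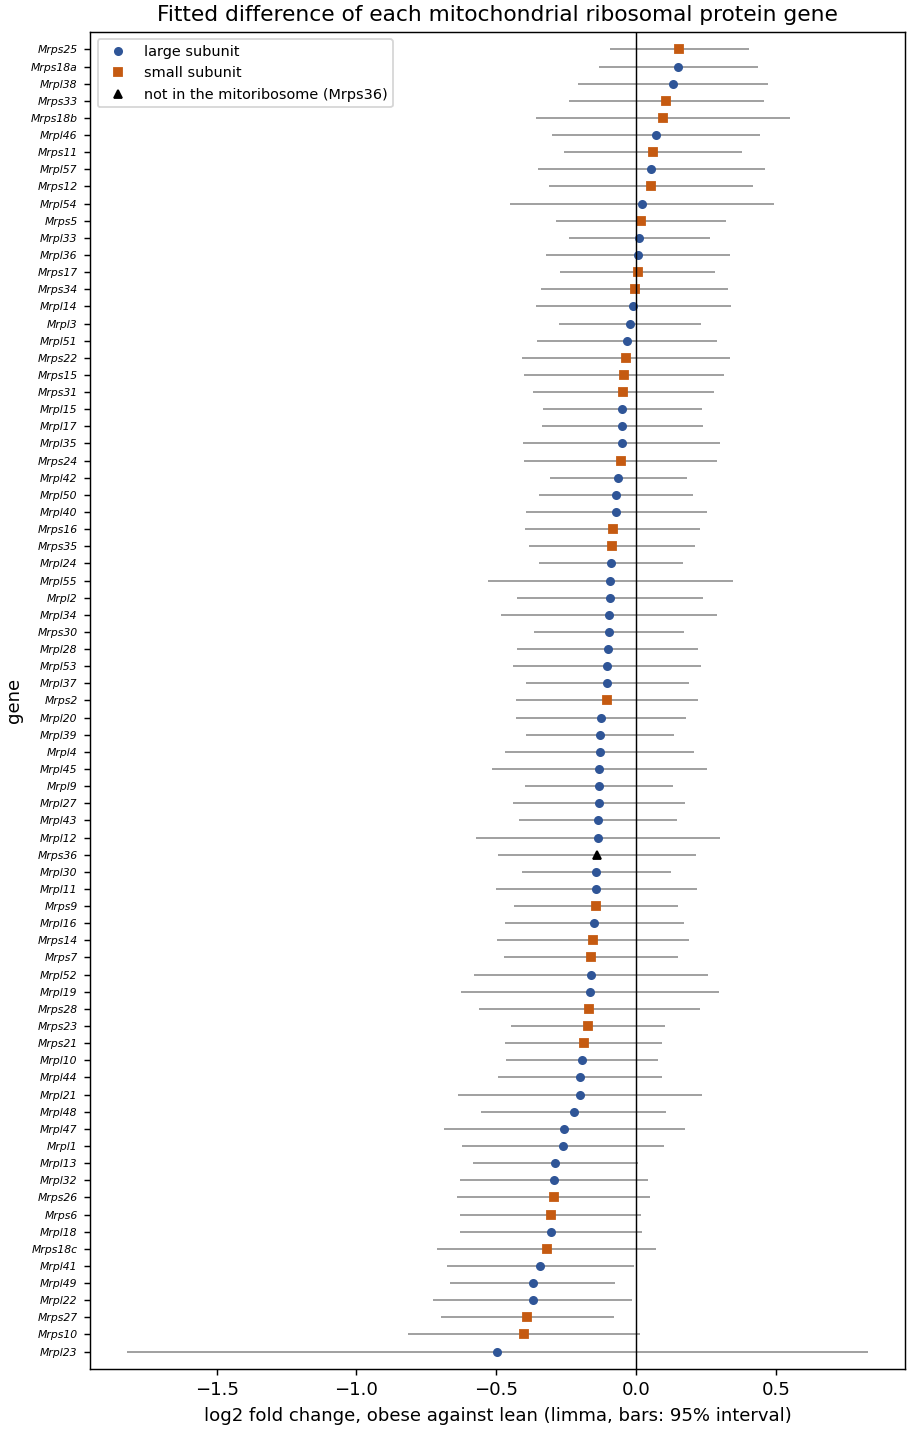
Log2 fold change, obese against lean, from limma (x axis) for each of the 77 genes (y axis), with bars for the 95% interval. Blue circles are large subunit, orange squares small subunit genes and the triangle is Mrps36; 63 points lie below 0 and the interval of 4 genes (Mrpl49, Mrps27, Mrpl22 and Mrpl41) leaves out 0.

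The intervals limit how large a difference could have gone unseen. The 95% interval of 62 of the 77 genes lay within a 1.5-fold change in either direction, and that of 76 within a 2-fold change, Mrpl23 being the exception. The median interval reached 0.33 log2 units, a 1.25-fold change, to either side. Of the 77 fitted values, 60 were smaller than 0.20 log2 units in size.

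The number of genes below 0 and the size of the median depended on the scaling and on single mice, while the median stayed below 0. When each library was scaled by its total of gene reads in place of the size factor, 49 of 77 genes (median −0.027) instead of 63 were below 0, with the median of all genes tested at 0.081. When obese mouse 2 was left out, 45 genes were below 0 and the median was −0.020, and when obese mouse 3 was left out, 72 were below 0 and the median was −0.20. Without lean mouse 2, 54 were below 0 (median −0.069), and without lean mouse 3, 69 (median −0.18). At an unadjusted p under 0.05, the 4 genes lower became 0 without obese mouse 2, 0 without lean mouse 2, 1 without lean mouse 1, 2 without obese mouse 1, 6 without lean mouse 3 and 13 without obese mouse 3. The share of all genes called also differed between these fits and was not set beside the counts. In limma, an unadjusted p of 0.018 for Mrpl49 without obese mouse 3 had an adjusted p of 0.219. Outside the family, an unadjusted p of 0.017 in limma for the assembly factor Mrm1 without lean mouse 2 had an adjusted p of 0.423. The counts thus do not describe the family alone.

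The family's level differed from mouse to mouse. In obese mouse 2 the mean deviation of the 77 genes from their own means over the 6 mice was −0.22 log2 units, and in obese mouse 1 the mean was −0.056. It was 0.095 in obese mouse 3, 0.092 in lean mouse 1, 0.13 in lean mouse 2 and −0.047 in lean mouse 3. The groups thus overlapped, with obese mouse 3 above lean mouse 3. Obese mouse 2 had the lowest value of the 6 mice for 50 genes and the highest for 0, and lean mouse 2 had the highest for 32. The summed normalized counts of the family were 46296, 41843 and 52217 in obese mice 1, 2 and 3 and 51691, 53151 and 46301 in lean mice 1, 2 and 3.

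**Figure D3:**
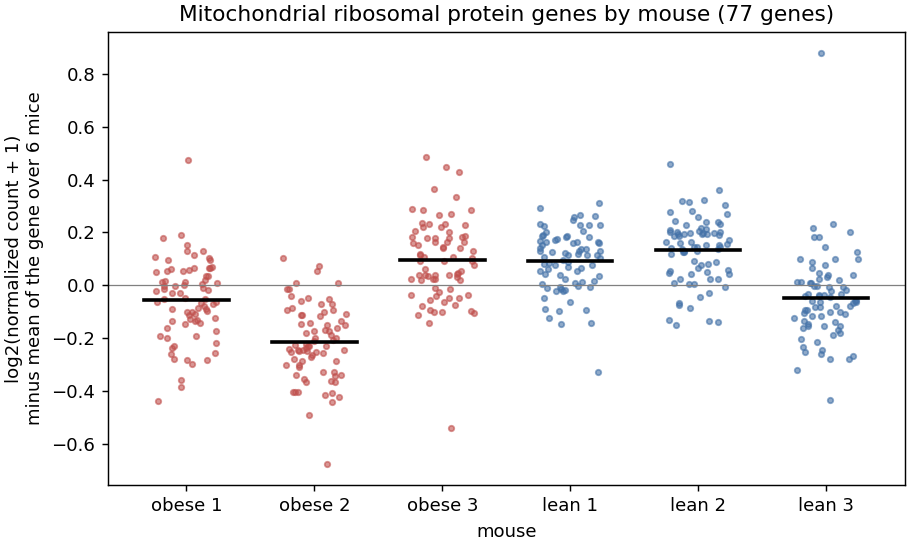
Each point is 1 of the 77 genes in 1 mouse (x axis), as log2(normalized count + 1) minus the mean of that gene over the 6 mice (y axis); black bars are means over genes. Obese mouse 2 is the lowest, at −0.22, and obese mouse 3 lies at 0.095, among the lean mice.

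The genes of the family moved together from mouse to mouse within a diet. Obese mouse 2 was the lowest of the 3 obese mice for 59 of the 77 genes (76.6%), against 33.5% of 5201 genes of like level (a mean of 267 to 1043 normalized counts). Obese mouse 3 was the highest of the obese for 62.3% of the family, against 37.6%. Among the lean, mouse 2 was the highest for 51.9%, against 26.5%, and mouse 3 the lowest for 67.5%, against 34.0%. The coefficient of variation was larger in the obese than in the lean mice for 52 of the 77 genes (67.5%), with medians of 13.3% and 9.42%, against 57.2% of the genes of like level, with medians of 11.8% and 10.2%. These shares are descriptions, since the genes of a mouse share its library.

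Mrpl49 (chr19:6053630-6057751, minus strand), a large subunit protein found only in mitochondria, had the smallest p of the family. It was at 406, 344 and 403 normalized counts in obese mice 1, 2 and 3 and at 517, 512 and 459 in lean mice 1, 2 and 3. All obese values lay below all lean values, the means being 384 ± 35.2 and 496 ± 32.2 (SD, n = 3). The log2 fold change was −0.37 (SE 0.13), with an unadjusted p of 0.019 and an adjusted p of 0.289 in limma. With each mouse left out in turn it ran from −0.42 to −0.29.

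Mrps27 (chr13:99344786-99415561, plus strand) encodes a pentatricopeptide repeat protein of the small subunit, of a class that binds RNA. Its counts were 383, 355 and 471 in obese mice and 522, 530 and 520 in lean mice 1, 2 and 3. The lean mice were tightly grouped (524 ± 5.07) and the obese mice spread (403 ± 60.8), without overlap. The log2 fold change was −0.39 (SE 0.14, unadjusted p = 0.019, adjusted p = 0.291), with a range of −0.51 to −0.30 when single mice were left out.

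Mrpl22 (chr11:58171661-58179565, plus strand), whose bacterial counterpart L22 lines the tunnel through which the new chain leaves, was at 215, 166 and 211 normalized counts in obese mice and 250, 250 and 262 in lean mice 1, 2 and 3. The groups did not overlap, and the log2 fold change was −0.37 (SE 0.16, unadjusted p = 0.043, adjusted p = 0.385). Mrpl41 (chr2:24974117-24975098, minus strand), a large subunit protein specific to mitochondria, was at 466, 380 and 517 in obese mice and at 630, 582 and 510 in lean mice 1, 2 and 3. Here obese mouse 3 lay above lean mouse 3, and the log2 fold change was −0.34 (SE 0.15, unadjusted p = 0.046, adjusted p = 0.393). With each mouse left out in turn, Mrpl22 ran from −0.44 to −0.25 and Mrpl41 from −0.44 to −0.22, both smallest without obese mouse 2, where limma's unadjusted p was 0.160 and 0.177.

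Mrpl13, Mrps10, Mrps6 and Mrpl18, all with bacterial counterparts, came next in the order of p. Their log2 fold changes were −0.29, −0.40, −0.31 and −0.31 and their unadjusted p 0.054, 0.057, 0.063 and 0.063. In each of them obese mice 1 and 2 lay below all lean mice, and obese mouse 3 lay at or above at least 1 lean mouse. Mrps6, for example, was at 1225, 1175 and 1669 normalized counts in obese and at 1571, 1810 and 1594 in lean mice 1, 2 and 3. Over the whole family the groups did not overlap for 5 genes lower in obese mice (6.49%, against 9.17% of all genes tested), namely Mrpl49, Mrps27, Mrpl22, Mrpl32 and Mrpl1. They did not overlap for 1 gene higher (against 8.86% of all genes tested), Mrps25.

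Mrps25 (chr6:92169525-92184033, minus strand), a small subunit protein specific to mitochondria, was at 1110, 1052 and 947 normalized counts in obese mice and 920, 923 and 943 in lean mice 1, 2 and 3. Obese mouse 3 was barely above lean mouse 3. The log2 fold change was 0.16 (SE 0.11, unadjusted p = 0.196, adjusted p = 0.636). Its exons share 4590 bases with Nr2c2, a nuclear receptor gene on the opposite strand, which was at 128 normalized counts in obese and 91.3 in lean mice on average. The part of this overlap in the value of Mrps25 was not tested.

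The others above 0 with the smallest p were Mrps18a (0.15), Mrpl38 (0.13), Mrps33 (0.11), Mrps18b (0.096), Mrps11 (0.061), Mrpl46 (0.071) and Mrps12 (0.052, the counterpart of S12 in the decoding centre). Their unadjusted p lay between 0.265 and 0.756 and their groups overlapped. The signs of Mrps18b, Mrpl46 and Mrps12 turned negative without obese mouse 3, that of Mrps12 also without lean mouse 3, and that of Mrps33 without lean mouse 1. Mrpl46 and Mrps11, the overlapping pair, were at 320 ± 46.3 and 278 ± 20.2 normalized counts in obese and 305 ± 46.1 and 267 ± 18.4 in lean mice (SD, n = 3).

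Mammals have 3 proteins related to bacterial S18, which occupy different places: Mrps18c at the bacterial position and Mrps18b elsewhere in the small subunit, and Mrps18a in the large subunit. Per kilobase of transcript Mrps18a was the highest of the 3 in every mouse (482 to 608). Mrps18b (279 to 460) and Mrps18c (219 to 352) overlapped. Mrps18c was at 184, 140 and 177 normalized counts in obese mice and at 184, 224 and 215 in lean mice 1, 2 and 3, a log2 fold change of −0.32 (SE 0.18, unadjusted p = 0.0998). Mrps18a was at 495, 469 and 537 in obese and 493, 433 and 426 in lean mice, and Mrps18b at 309, 319 and 496 and at 415, 322 and 301. For Mrps18b, obese mouse 3 was the highest of the 6 mice and obese mice 1 and 2 lay within the lean range.

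**Figure D4:**
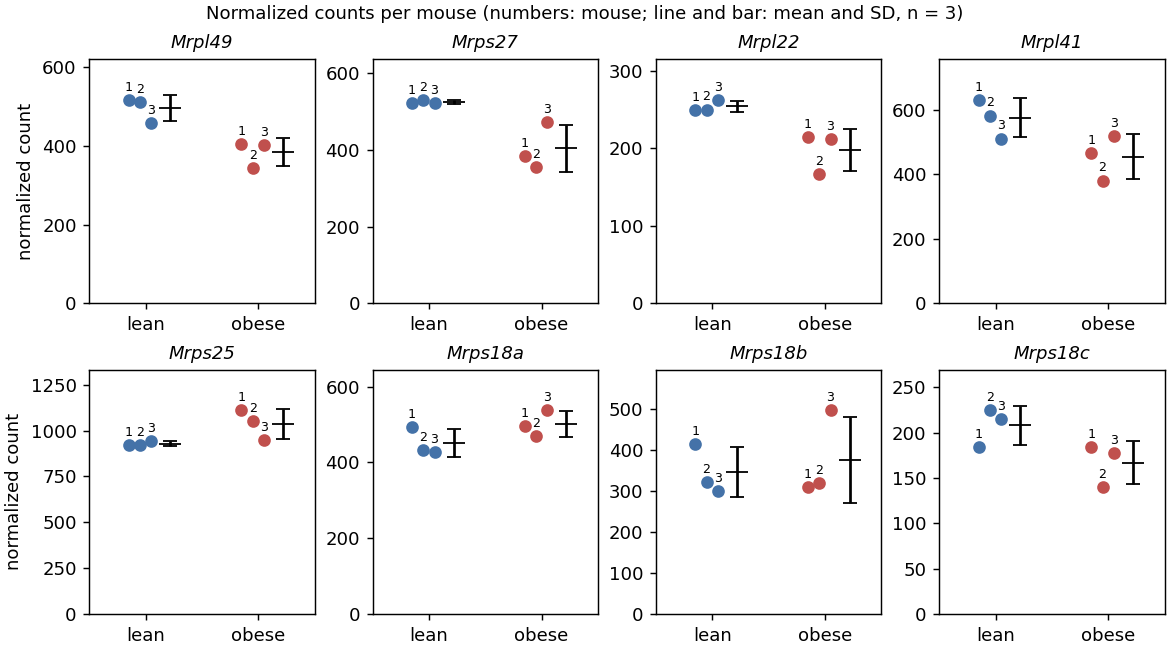
Normalized counts (y axis, from 0) of 8 genes in lean (blue) and obese (red) mice (x axis), with mouse numbers, and mean and SD (n = 3). Mrpl49, Mrps27 and Mrpl22 do not overlap between the diets, Mrpl41 and the 3 Mrps18 genes do, and Mrps25 is separated by the distance from 943 to 947.

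By subunit, the median log2 fold change was −0.13 for the 50 large subunit genes (43 below 0) and −0.085 for the 26 small subunit genes (19 below 0). For the 46 genes with bacterial counterparts it was −0.13 (40 below 0) and for the 30 specific to mitochondria −0.079 (22 below 0). The differences between these medians were not tested. Without obese mouse 2 the medians were −0.026 (31 of 50 below 0) and 0.00066 (13 of 26) by subunit, and −0.024 (27 of 46) and −0.015 (17 of 30) by these 2 classes. With libraries scaled by their total of gene reads they were −0.052 (34 of 50) and −0.0088 (14 of 26), and −0.056 (33 of 46) and −0.0023 (15 of 30). The stalk, to which translation factors bind, was represented by Mrpl10 (−0.19), Mrpl12 (−0.14) and Mrpl53 (−0.10). Mrpl12 showed the widest spread of the 3, with 1391, 1314 and 2307 normalized counts in obese mice against 1840, 1946 and 1562 in lean mice 1, 2 and 3. Mrps36 was at −0.14, with 475 ± 80.8 in obese and 521 ± 64.8 in lean mice.

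Medians by feature of the start region lay close together, and their differences were not tested. The 12 genes with the YY1 letters had a median log2 fold change of −0.059, the 24 with the ETS letters −0.099 and the 13 with the NRF1 letters −0.14, against −0.13, −0.13 and −0.10 for the genes without them. Genes with a divergent neighbour were at a median of −0.14 (18 of 22 below 0) and the others at −0.10 (45 of 55 below 0). Of the 19 neighbours that were tested and were not of the family, 10 were below and 9 above 0, with a median of −0.0058 and 0 with an adjusted p under 0.05 in limma (1, Twnk, at an unadjusted p under 0.05). Fau was at 0.091 beside Mrpl49 at −0.37, and Ptcd2, a mitochondrial pentatricopeptide repeat gene, at −0.16 beside Mrps27 at −0.39.

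Of the mitoribosome proteins known under other names, 7 were measured, counting Mrpl57 (formerly Mrp63), which the name rule also takes in. Their median was −0.16, with 6 below 0 and 0 with an adjusted p under 0.05. At an unadjusted p under 0.05 in limma, 2 were lower (28.6%, against 5.55% of all genes tested). The groups did not overlap for 2, both lower (28.6%, against 9.17% of all genes tested). Ptcd3, a pentatricopeptide repeat protein of the small subunit, was at 965, 977 and 1094 normalized counts in obese and 1151, 1460 and 1364 in lean mice 1, 2 and 3, without overlap (log2 fold change −0.38, SE 0.13, adjusted p = 0.228). Mrpl58, also known as Ict1, a peptidyl-tRNA hydrolase built into the large subunit, was at 441, 388 and 463 and at 654, 535 and 517, again without overlap (−0.40, SE 0.14, adjusted p = 0.285). Dap3 (−0.094), a GTP-binding protein of the small subunit, Chchd1 (−0.094), Aurkaip1 (−0.16), Gadd45gip1 (−0.16) and Mrpl57 (0.055) had overlapping groups. The sign of Mrpl57 turned without obese mouse 3 (−0.014), without lean mouse 1 (−0.0045) and without lean mouse 3 (−0.058). The median of the 7 was −0.070 without obese mouse 2.

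The 2 ribosomal RNAs around which the proteins assemble rested on lean mouse 2. The small subunit rRNA mt-Rnr1 was at 99788, 105787 and 90964 normalized counts in obese mice and at 93444, 223603 and 93416 in lean mice 1, 2 and 3. The large subunit rRNA mt-Rnr2 was at 670462, 757618 and 624049 in obese mice and at 642482, 1703328 and 652595 in lean mice 1, 2 and 3. The log2 fold changes of −0.34 and −0.39 became 0.079 and 0.075 without lean mouse 2. For the transcripts of the 77 protein genes, lean mouse 2 lay at 0.13 and lean mouse 1 at 0.092 log2 units above the gene means. Without lean mouse 2 the median of these 77 moved from −0.10 to −0.069, and the genes below 0 from 63 to 54. The 13 mitochondrial mRNAs, which the mitoribosome translates, were all below 0 (median −0.31) and 0 had an adjusted p under 0.05. The groups did not overlap for 7 of them, all lower (53.8%, against 9.17% of all genes tested). At an unadjusted p under 0.05 in limma, 2 were lower (15.4%, against 5.55%). All 13 were highest in lean mouse 2, and without it 11 were below 0 (median −0.24). After quantile normalization 9 of the 13 were below 0, with a median of −0.078. mt-Atp8 had the smallest p among them, at 14920, 12850 and 11706 in obese and 18186, 19961 and 16781 in lean mice 1, 2 and 3 (log2 fold change −0.48, SE 0.13, adjusted p = 0.147).

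No factor that builds or serves the mitoribosome passed the test after adjustment. Among 24 assembly factors 17 were below 0 (median −0.13). At an unadjusted p under 0.05 in limma, 3 were lower (12.5%, against 5.55% of all genes tested) and 1 was higher (against 6.66%). The groups did not overlap for 7 lower (29.2%, against 9.17%) and 1 higher (4.17%, against 8.86%). Mrm1, which methylates the large subunit rRNA, was at 517, 470 and 486 normalized counts in obese and 631, 794 and 697 in lean mice 1, 2 and 3, without overlap (−0.52, SE 0.13, adjusted p = 0.105), and the RNA helicase Dhx30 was at 0.28 (adjusted p = 0.389). Among 15 translation factors 12 were below 0 (median −0.20), with 2 lower at an unadjusted p under 0.05 in limma (13.3%, against 5.55% of all genes tested). Tufm, the elongation factor that brings aminoacyl-tRNA to the ribosome, was at −0.38 (adjusted p = 0.326) with overlapping groups, and the release factor Mtrf1l at 0.36 (adjusted p = 0.507). Of 17 mitochondrial aminoacyl-tRNA synthetases 15 were below 0 (median −0.084) and 0 had an unadjusted p under 0.05, Fars2 (−0.23) and Pars2 (0.040) having the smallest p in each direction. Without lean mouse 2 the median of the translation factors was −0.11 and that of the synthetases −0.054.

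Of 8 genes for upkeep and transcription of mitochondrial DNA 6 were below 0 (median −0.094, and −0.034 with 4 below 0 without lean mouse 1). Tefm, the elongation factor of mitochondrial transcription, was at 185, 159 and 196 normalized counts in obese and 264, 285 and 252 in lean mice 1, 2 and 3 (−0.57, SE 0.16, adjusted p = 0.139), without overlap. Twnk was at 571, 684 and 542 and at 480, 454 and 465 (0.35, SE 0.13, adjusted p = 0.305), also without overlap; its exons share 507 bases with those of Mrpl43 (−0.14) on the opposite strand. Of 9 nuclear factors known to act on genes of mitochondrial biogenesis 7 were above 0 (median 0.096, and 0.012 without obese mouse 3). Ppargc1a, the coactivator PGC-1α, was at 1444, 2091 and 1405 in obese and 1092, 1166 and 1470 in lean mice 1, 2 and 3, with overlap (0.39, SE 0.17, adjusted p = 0.391), highest in obese mouse 2, the mouse with the lowest family mean. Without that mouse Ppargc1a was at 0.21 (unadjusted p = 0.198 in limma). Of the factors whose letters were counted above, Nrf1 was at 0.030, Gabpa at 0.11 and Yy1 at −0.11.

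**Figure D5:**
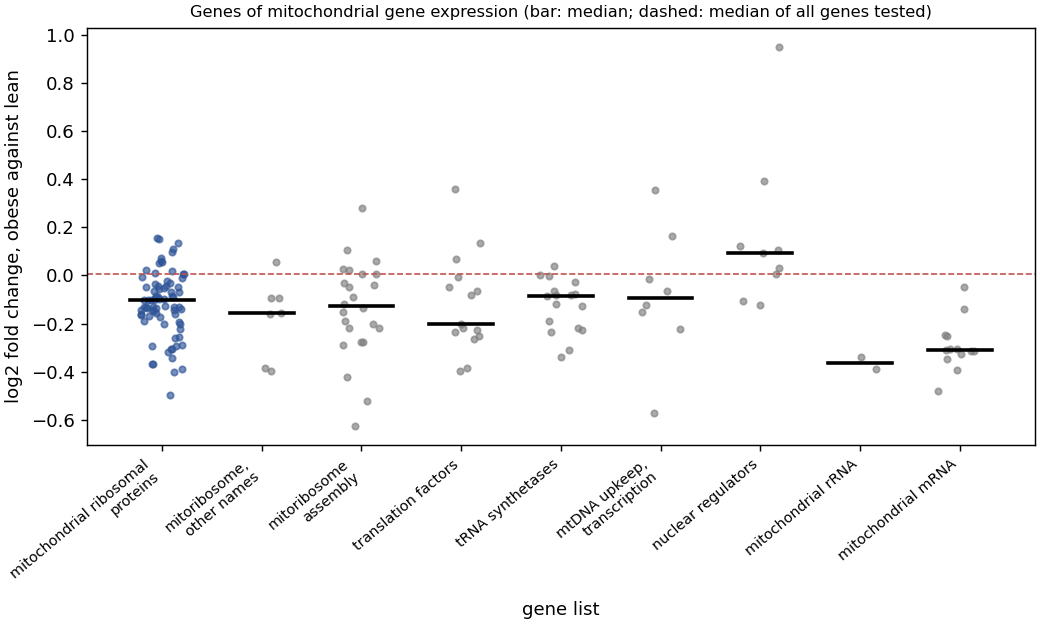
Log2 fold change, obese against lean, from limma (y axis) of the mitochondrial ribosomal proteins (blue) and of lists of genes of mitochondrial gene expression (grey, x axis); black bars are medians and the dashed line is the median of all genes tested, 0.0049. Medians lie below the line for every list except the nuclear regulators (0.096), and those of the 2 rRNAs lie at −0.37 with lean mouse 2 and at 0.077 without it.

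The 79 nuclear genes of oxidative phosphorylation tested had a median of −0.14 with 73 below 0, and the 81 cytosolic ribosomal protein genes a median of −0.038 with 58 below 0. Both had 0 genes with an adjusted p under 0.05 in limma, with 1 higher and 2 lower, and 1 higher and 4 lower, at an unadjusted p under 0.05. Those lower made up 2.53% and 4.94%, against 5.55% of all genes tested. Without obese mouse 2 the medians were −0.046 (57 of 79 below 0) and 0.018 (32 of 81 below 0). By mouse, the oxidative phosphorylation genes lay −0.019, −0.22 and 0.064 from their own means in obese mice 1, 2 and 3 and 0.11, 0.14 and −0.066 in lean mice 1, 2 and 3. As in the mitochondrial ribosomal proteins, lean mouse 2 was the highest and obese mouse 2 the lowest. The cytosolic ribosomal proteins lay at 0.047, −0.13 and 0.050 in obese and at −0.0026, 0.062 and −0.025 in lean mice 1, 2 and 3, with the same mice at the ends. When libraries were scaled by their total of gene reads, 28 instead of 58 cytosolic ribosomal protein genes and 67 instead of 73 oxidative phosphorylation genes were below 0.

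The cell types of the tissue also differed between mice. The 6 markers of atrial myocytes were all below 0 and 3 had an unadjusted p under 0.05, their sum being 291723 to 523587 normalized counts in obese and 449273 to 494147 in lean mice. On average they lay −0.27, −0.40 and 0.070 log2 units from their own means in obese mice 1, 2 and 3 and 0.22, 0.20 and 0.17 in lean mice. Obese mouse 2 was thus the lowest and obese mouse 3 the highest of the obese, as for the mitochondrial ribosomal proteins. Among the lean, mouse 1 was the highest, where lean mouse 2 was the highest for the family. The 5 markers of cardiomyocytes in general lay at −0.39, −0.22 and 0.30 in obese and at 0.12, 0.082 and 0.10 in lean mice, with obese mouse 1 the lowest. The 5 ventricular markers lay at −0.24, −0.32 and 0.12 in obese and at 0.059, 0.71 and −0.34 in lean mice 1, 2 and 3. Within each diet, their highest and lowest mice were those of the family. The 4 brown adipocyte markers summed to 616 to 1283 in obese and 187 to 330 in lean mice, with Ucp1 and Cidea higher after adjustment (adjusted p = 0.045 and 0.031) and Elovl3 at 0 in lean mice 2 and 3. The 8 white adipocyte markers summed to 6809 to 12757 in obese and 3615 to 7124 in lean mice. Of the 8, 7 were fitted above 0 and 1 below 0, at −1.41. On average they lay 0.87, −0.53 and 0.13 log2 units from their own means in obese mice 1, 2 and 3. In lean mice 1, 2 and 3 they lay at 0.64, −0.074 and −1.03, so the groups overlapped. The 6 macrophage markers summed to 8425 to 9779 in obese and 6087 to 7827 in lean mice, with 2 higher after adjustment. The 5 endothelial markers summed to 15882 to 18199 in obese and 13361 to 13948 in lean mice. The 5 fibroblast markers summed to 32832 to 34609 in obese and 33273 to 38927 in lean mice. The part of these differences in the values of the mitochondrial ribosomal proteins was not tested. In whole atria, fewer cells of a type and less RNA per cell cannot be told apart.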

How the data were processed

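The authors prepared directional libraries (NEBNext Ultra), sequenced single-end reads of 50 bases, aligned them with STAR to GRCm38 (Ensembl 79), kept uniquely mapped reads and assigned them to genes with Salmon; tool versions are not given in the sources used here. The deposited signal per gene and mouse is the read count divided by a DESeq2 size factor (normalized counts). The deposited comparison columns of the authors were not used. Reads were recovered as whole multiples (tolerance 0.01) for 100% of values. A row without a gene name held no reads.

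Differences between obese and lean mice (3 each) were fitted in R 4.3.3 with limma 3.58.1 (functions lmFit and eBayes with a variance trend, no covariates) on log2(normalized count + 1), which understates changes of low genes. All 15275 genes with a mean of at least 10 were fitted, with Benjamini-Hochberg adjustment over all of them and a threshold of 0.05. The test was tested on simulated data. Alternatives were edgeR 4.0.16, DESeq2 1.42.0, other normalizations, filters and pseudocounts, a replicate block and each mouse left out. The smallest two-sided p of an exact permutation of 3 against 3 mice is 0.1, so none was run.

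The family and all gene lists were chosen with earlier results of these data known. Named genes are the 8 with the smallest p in each direction, the 3 with the highest and the 3 with the lowest level, the Mrps18, stalk and Mrps36 genes, mitoribosome parts of other names, and in other lists the gene with the smallest p in each direction; genes in groups of 5 or fewer and marker genes were named after their values were seen. Gene positions and divergent neighbours come from the deposited table. Lengths and exon overlaps come from GENCODE release 21 (mouse), which named 97.8% of gene identifiers. Start regions come from RefSeq (GRCm38.p6) and near-identical copies from BLAST 2.17.0. Limits from 3 reads lay between 2.05 and 3.41 normalized counts, counting error only.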

Additional observations from a re-analysis of the deposited data

How the results depend on the processing

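No gene of the family had an adjusted p under 0.05, and no gene above 0 had an unadjusted p under 0.05, in limma or under any of the 17 alternatives run. The number of genes lower at an unadjusted p under 0.05, 4 in the comparison reported, was 7 after quantile normalization, 0 with libraries scaled by their total of gene reads, 8 with libraries scaled by their reads on nuclear genes and 2 with DESeq2; the cause was not tested. It ran from 0 to 13 when single mice were left out. The share of all genes called in each setting was not set beside these numbers, so they do not describe the family alone. The median log2 fold change stayed below 0, from −0.20 to −0.020 without single mice and from −0.14 to −0.027 otherwise. With the replicate number as a block 2 genes were lower at an unadjusted p under 0.05 in limma, and the block gave 157 instead of 114 calls over all genes. The correlations of same-numbered obese and lean mice were 0.12, −0.027 and −0.0039, and not every mouse correlated best with its own number. With 3 mice per group, these values cannot tell whether same-numbered mice were paired or handled together. Of 458 alternative values of 27 named genes, 15 changed sign. Some of the genes concerned had fitted differences larger in size than the family's median of −0.10. Among these were Mrpl19 (−0.17 in the comparison reported), Mrpl12 (−0.14) and Mrps33 (0.11). With libraries scaled by their total of gene reads, Mrpl42 was at 0.014 and Mrpl17 at 0.027. With single mice left out, values ran from −0.42 to 0.011 for Mrpl19, −0.11 to 0.023 for Mrpl17, −0.39 to 0.014 for Mrpl12, −0.21 to 0.0087 for Mrpl53, −0.12 to 0.23 for Mrps18b, −0.027 to 0.19 for Mrpl46, −0.074 to 0.18 for Mrps12, −0.058 to 0.23 for Mrpl57 and −0.029 to 0.25 for Mrps33. Mrpl23, at 7 to 23 normalized counts, is the gene whose depth limits it most, and it was not tested with a minimum of 10 in every mouse.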
